A study of Mus musculus with 12 samples.

Results

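Ovalbumin (OVA) pulsing of LPS-stimulated Sp37A3 dendritic cells (DCs) was examined with both cell lines of the study pooled. All 12 libraries entered the comparison, 6 from OVA-pulsed and 6 from unpulsed cells, and libraries were chosen by their labels alone. Sp37A3 is a DC line derived from mouse spleen and was kept in medium with GM-CSF and M-CSF. CtrV cells carry an empty vector and express Siglec-E, and EKO cells are pooled clones in which Siglece was targeted by CRISPR-Cas9. There were 4 groups of 3 libraries: unpulsed CtrV, OVA-pulsed CtrV, unpulsed EKO and OVA-pulsed EKO. Pulsed cells received 0.1 mg/ml OVA for 2 h, were washed, and were then stimulated with 0.1 µg/ml LPS for 24 h. Unpulsed cells were also stimulated with LPS for 24 h; their LPS dose, and whether they went through a mock incubation and wash, is not given in the sources used here. LPS was thus common to all 4 groups, no unstimulated library was compared, and the comparison concerns what OVA added to cells that had received LPS. Replicates numbered 1 to 3 in each group gave 6 pairs of a pulsed and an unpulsed library with the same line and number. Nothing in the labels says that the replicates came from separate cultures, so the p-values measure the spread between these samples, which may be technical.

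DCs take up protein antigen by receptor-mediated endocytosis and macropinocytosis, cut it in endosomes and lysosomes, and load the peptides onto MHC class II for CD4+ T cells or, by cross-presentation, onto MHC class I for CD8+ T cells. LPS acts through TLR4 and induces maturation, in which co-stimulators, cytokines, chemokines and the homing receptor CCR7 are transcribed and type I interferon is released. OVA is a model antigen for this pathway. The comparison asks which transcripts of these steps, or of any other process, differed after the protein had been given.

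Total counts were between 27116201 and 39698572 per library, and the test covered 14079 of 55401 genes, those with a log2 CPM (edgeR's normalized counts scaled to a fixed library size) above 0 in 2 or more libraries. The pulsed library had the larger total in 5 of the 6 pairs. A level of 3 counts, the smallest taken as seen, corresponded to between 0.0784 and 0.11 CPM, which covers counting error only. Siglece (chr7:43651070-43660161 on GRCm38), the edited gene, had 153, 150 and 162 CPM in unpulsed CtrV, 152, 153 and 163 CPM in pulsed CtrV, 166, 221 and 235 CPM in unpulsed EKO and 174, 208 and 202 CPM in pulsed EKO libraries. Its mRNA was not lower in any library labelled EKO than in the CtrV libraries. The paper reports that Siglec-E was minimal or absent on the clones that were pooled, and mRNA counts do not measure that protein. The line is called EKO-labelled here after its label. Siglece did not pass the test for pulsing (log2 fold change -0.038 (SE 0.06), 95% interval -0.17 to 0.093, adjusted p = 1). All 10 DC markers were tested, and their summed level was between 24300 and 26400 CPM in unpulsed and between 24100 and 25800 CPM in pulsed libraries. Cd74 made up most of that sum, at 13900 to 18200 CPM. Over all libraries Flt3 ranged from 0.996 to 7.84, Batf3 from 2.45 to 14.8 and Irf8 from 80 to 295 CPM. Itgax (822 to 1090 CPM) and Zbtb46 (56.3 to 78.6 CPM) varied less. All 8 macrophage or monocyte markers, including Adgre1, Csf1r and C1qa, were also present, at summed levels of 2150 to 3490 and 2090 to 3430 CPM. Markers of neutrophils, mast cells and fibroblasts had at most 3 counts in every library, and no tested marker of the 11 cell types had an unadjusted p under 0.05 for pulsing.

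No transcript passed the test for a difference between OVA-pulsed and unpulsed cells averaged over the lines. The count was 0 of 14079 genes (0%) at an adjusted p under 0.05 in edgeR's quasi-likelihood test, and the smallest adjusted p was 1. DESeq2 and limma voom also gave 0 genes. At an unadjusted p under 0.05 edgeR gave 314 genes (2.23%), below the 5% that this threshold passes when p-values are uniform, with 151 higher (1.07%) and 163 lower (1.16%). DESeq2 gave 83 genes and voom 336 at that threshold. The main fit has 1 replicate term for both lines, and edgeR with a replicate block within each line gave 510 genes (3.62%). The share of higher genes at that threshold, 48.1% in the main fit, depended on the scaling. It was 32.5% with library totals alone and 20.6% with upper-quartile normalization. The count was 0 (0%) in CtrV cells and 0 (0%) in EKO-labelled cells taken singly, with 231 (1.64%) and 394 (2.8%) genes at an unadjusted p under 0.05. With 1 library left out the CtrV number lay between 161 (1.15%, without unpulsed CtrV replicate 3) and 663 (4.72%, without unpulsed CtrV replicate 1). The EKO-labelled number lay between 244 (1.74%, without pulsed EKO-labelled replicate 1) and 1076 (7.66%, without unpulsed EKO-labelled replicate 1). The share was thus not below 5% in every fit. For comparison, the contrast of the lines in the same fit gave 8512 genes (60.5%).

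The precision of the fit bounded the size of a difference for most genes. Over all tested genes the median absolute log2 fold change was 0.04 for pulsing and 0.201 between the lines. Only 38 genes exceeded 0.5 for pulsing and 6 exceeded 1, against 2966 and 1255 between the lines. Those 6 were Hnmt, Ifi206, Arhgap32, Prelid2, Msi2 and Gm5847, named after their values were seen, each with few counts in at least 1 line. The 95% interval, taken gene by gene and not adjusted for the number of genes, lay within a log2 fold change of -1 to 1 for 13985 genes (99.3%) and within -0.5 to 0.5 for 13094 (93%). Among the 12392 genes with a mean log2 CPM of at least 1, it lay within -1 to 1 for all but 5 and within -0.5 to 0.5 for 98.3%. The median half-width of these intervals was 0.115. A difference of a few percent in single genes was therefore not detectable at this replication.

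**Figure D1:**
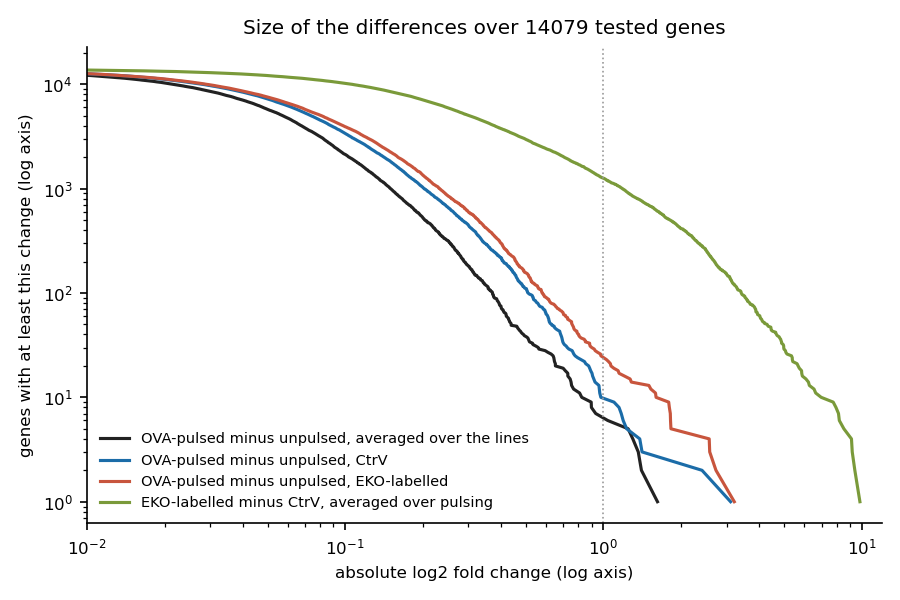
Number of tested genes (vertical axis, log scale) with at least the absolute log2 fold change on the horizontal axis (log scale), for pulsing averaged over the lines, for pulsing in each line and for the contrast of the lines; the dotted line marks 1. The pulsing curves fall to between 6 and 24 genes at 1, where the curve for the lines still holds 1255.

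Replicate numbers took a larger share of the variation than pulsing did. Over the tested genes, line took 78.3% of the sum of squares of log2 CPM around the gene means, and the replicate numbers within a line took 13.3% over 4 degrees of freedom, or 3.32% each. Pulsing took 1.17% with its 1 degree of freedom, the interaction of line and pulsing 1.43%, and the remainder within pairs 1.45% per degree of freedom. When principal components were taken over the 3520 genes of highest variance, the first held 83.6% of the variance and separated the lines. The second, with 7.05%, set both replicates numbered 1 of the EKO-labelled cells apart, at scores of 19.1 without OVA and 20.9 with OVA. In none of the first 6 components did all 6 pairs move in 1 direction from unpulsed to pulsed. Within groups, libraries were further apart than counting error alone gives, at 4.29 to 38.3 chi-square units for each degree of freedom.

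**Figure D2:**
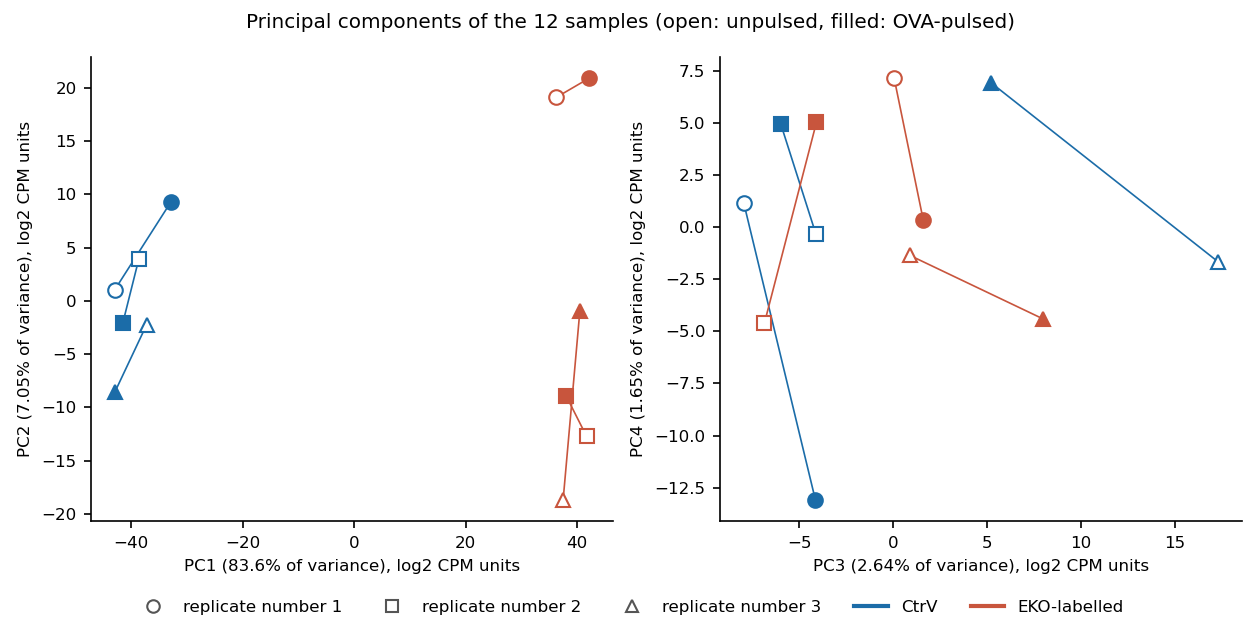
Scores of the 12 samples on principal components 1 and 2 (left) and 3 and 4 (right) in log2 CPM units, open for unpulsed and filled for OVA-pulsed, with a line joining the 2 samples of a line and replicate number. The joining lines point in different directions, and the EKO-labelled samples numbered 1 lie together on component 2.

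Transcripts of antigen uptake showed no difference that passed the test. Of 24 listed receptors 19 were tested, 0 were called, and the median log2 fold change was -0.0533, beside 0.00333 over all tested genes. Mrc1, the mannose receptor, which binds the glycans of OVA, had 0 counts in all 12 libraries. The paper examined the receptor itself on both lines and reports less of it on EKO cells, a measure that RNA counts do not replace. Fcgrt, the heavy chain of the neonatal Fc receptor, was the member with an unadjusted p under 0.05. It had 35.2, 32.5 and 35.2 CPM in unpulsed and 31.2, 33.7 and 32.9 CPM in pulsed CtrV cells, and 33.0, 33.2 and 35.8 against 30.9, 31.5 and 32.1 CPM in EKO-labelled cells. Its pulsed libraries were lower in 5 of 6 pairs, and the groups overlapped in CtrV cells but not in EKO-labelled cells, where the gap was small (averaged log2 fold change -0.092 (SE 0.037), 95% interval -0.17 to -0.0095, adjusted p = 1). Ly75, which encodes the endocytic receptor DEC-205, had a wide interval of -0.51 to 0.65. Lrp1, a large scavenger receptor, was the only tested receptor whose interval reached 1 (log2 fold change 0.90 (SE 0.58), 95% interval -0.40 to 2.19). Its pulsed libraries scattered from 0.265 to 3.54 CPM in CtrV cells, around the unpulsed range of 0.352 to 1.85 CPM. In EKO-labelled cells it had 1.57, 0.857 and 0.428 CPM without and 4.10, 0.578 and 4.18 CPM with OVA, and the log2 fold change was 1.59 (SE 0.79), 95% interval -0.16 to 3.34, there and 0.20 (SE 0.86), 95% interval -1.70 to 2.11, in CtrV cells. Among 27 genes of endocytosis and macropinocytosis the median was 0.009, and all 27 intervals lay within -0.5 to 0.5.

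Genes of antigen processing and presentation had narrow intervals, within -0.5 to 0.5 for all 21 tested class II, all 25 class I and 24 of 25 lysosomal genes. The median log2 fold change was -0.00415 over 21 genes of MHC class II presentation, 0.000199 over 25 of MHC class I and cross-presentation and 0.00024 over 25 lysosomal genes. Of these 3 lists 0 genes were called, and 0 had an unadjusted p under 0.05. H2-Ab1 (chr17:34257689-34269419), the beta chain of the class II molecule I-A, had 2754, 2987 and 3156 CPM in unpulsed and 2821, 3026 and 3081 CPM in pulsed CtrV cells, and 4182, 4321 and 4363 against 4230.0, 4353 and 4164 CPM in EKO-labelled cells. Pulsed and unpulsed ranges overlapped almost completely in both lines, and the interval of the averaged log2 fold change was -0.087 to 0.08. H2-K1, a classical class I heavy chain, had a log2 fold change of 0.017 (SE 0.071), 95% interval -0.14 to 0.17. Lnpep, an endosomal aminopeptidase (IRAP) that trims peptides in cross-presentation, was the class I gene with the highest value. It was higher in the pulsed library of all 6 pairs, yet its averaged log2 fold change of 0.12 (SE 0.07), 95% interval -0.037 to 0.27, did not pass the test (adjusted p = 1). H2-DMa, a subunit of the peptide exchange factor of class II, had the lowest value of the class II list (-0.081 (SE 0.045), 95% interval -0.18 to 0.017), and 10.4% of its exon length lies opposite another gene.

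Co-stimulators and cytokines of T cell priming were likewise not called. Of 17 listed co-stimulators and checkpoint ligands 15 were tested, with a median of 0.0477, which was -0.036 in CtrV and 0.128 in EKO-labelled cells, and between -0.0313 (without unpulsed CtrV replicate 1) and 0.108 (without unpulsed CtrV replicate 3) when 1 library was left out. Cd86 (chr16:36603869-36666081), a ligand of CD28, had 448, 484 and 534 CPM in unpulsed and 491, 464 and 467 CPM in pulsed CtrV cells. In EKO-labelled cells it had 826, 796 and 754 CPM without and 828, 812 and 835 CPM with OVA. Its pulsed and unpulsed values overlapped in both lines, and its interval of -0.10 to 0.11 was narrower than those of Cd80, Cd40 and Cd83. For Cd80, the other CD28 ligand, the log2 fold change was 0.048 (SE 0.079), 95% interval -0.13 to 0.22. For Cd40, the receptor by which T helper cells license DCs, it was 0.066 (SE 0.13), 95% interval -0.22 to 0.35. Cd83, a marker of mature DCs, was less certain, with -0.011 (SE 0.25), 95% interval -0.56 to 0.53.

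Among 15 tested cytokines the median was 0.0254. Il12b, which encodes the p40 chain common to IL-23 and IL-12, was at 16.4, 21.9 and 22.4 CPM in unpulsed and 30.6, 22 and 14.3 CPM in pulsed CtrV cells, and 414, 486 and 357 against 659, 431 and 466 CPM in EKO-labelled cells. Pulsed libraries numbered 1 were the highest of their line, while the others overlapped the unpulsed ones (log2 fold change 0.20 (SE 0.16), 95% interval -0.15 to 0.55). The p35 partner Il12a had 0 counts in all 12 libraries. Il23a, which encodes the p19 subunit, had a log2 fold change of 0.025 (SE 0.21), 95% interval -0.43 to 0.48, and Il1b, the pyrogenic cytokine, one of 0.066 (SE 0.13), 95% interval -0.22 to 0.35. Both were below 0 in CtrV and above 0 in EKO-labelled cells, with intervals that held 0 in each line. The intervals of Ifnb1 and Inhba reached -1 and 1, respectively, and both had few counts in 1 line.

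The chemokine list had 18 tested members and a median of -0.000797, with 9 values above and 9 below 0. Ccl2, which attracts monocytes, had a log2 fold change of 0.0074 (SE 0.093), 95% interval -0.20 to 0.21. For Ccl4 it was -0.069 (SE 0.14), 95% interval -0.38 to 0.25. Ccl5 and the CCR4 ligand Ccl22 had point estimates close to 0 and wide intervals. Ccl22 (chr8:94745590-94751699) had 313, 435 and 678 CPM in unpulsed and 831, 263 and 277 CPM in pulsed CtrV cells, and 2976, 993 and 822 against 3570.0, 898 and 2101 CPM in EKO-labelled cells. Pulsed CtrV cells were highest at number 1 and below the unpulsed ones at numbers 2 and 3, and in EKO-labelled cells replicate 1 was high with and without OVA and replicate 3 was higher with it. The averaged log2 fold change of Ccl22 was 0.035 (SE 0.32), 95% interval -0.67 to 0.74, and that of Ccl5 was -0.055 (SE 0.29), 95% interval -0.70 to 0.59.

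**Figure D3:**
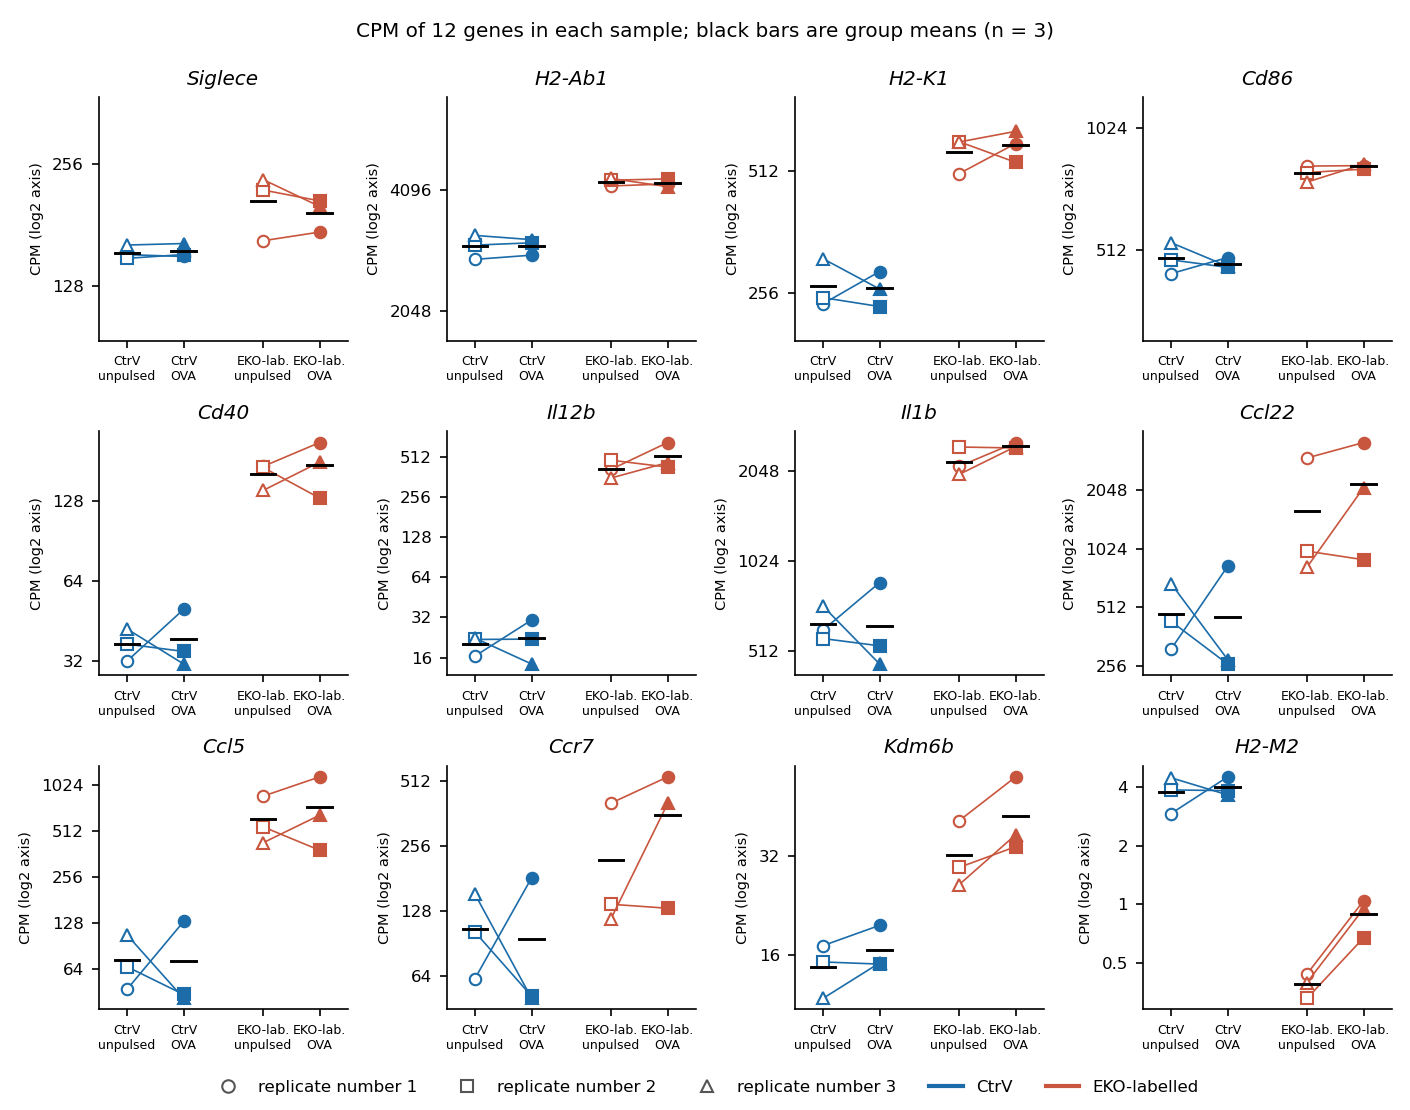
CPM (log2 axis) of 12 genes in each sample, with pulsed and unpulsed samples of a line and replicate number joined and black bars at the group means (n = 3). H2-Ab1, H2-K1 and Cd86 run flat, while Ccl22, Ccl5 and Ccr7 cross in CtrV cells, higher with OVA at number 1 and lower at numbers 2 and 3; Kdm6b and H2-M2 are the 2 coding genes with the smallest p.

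**Figure D4:**
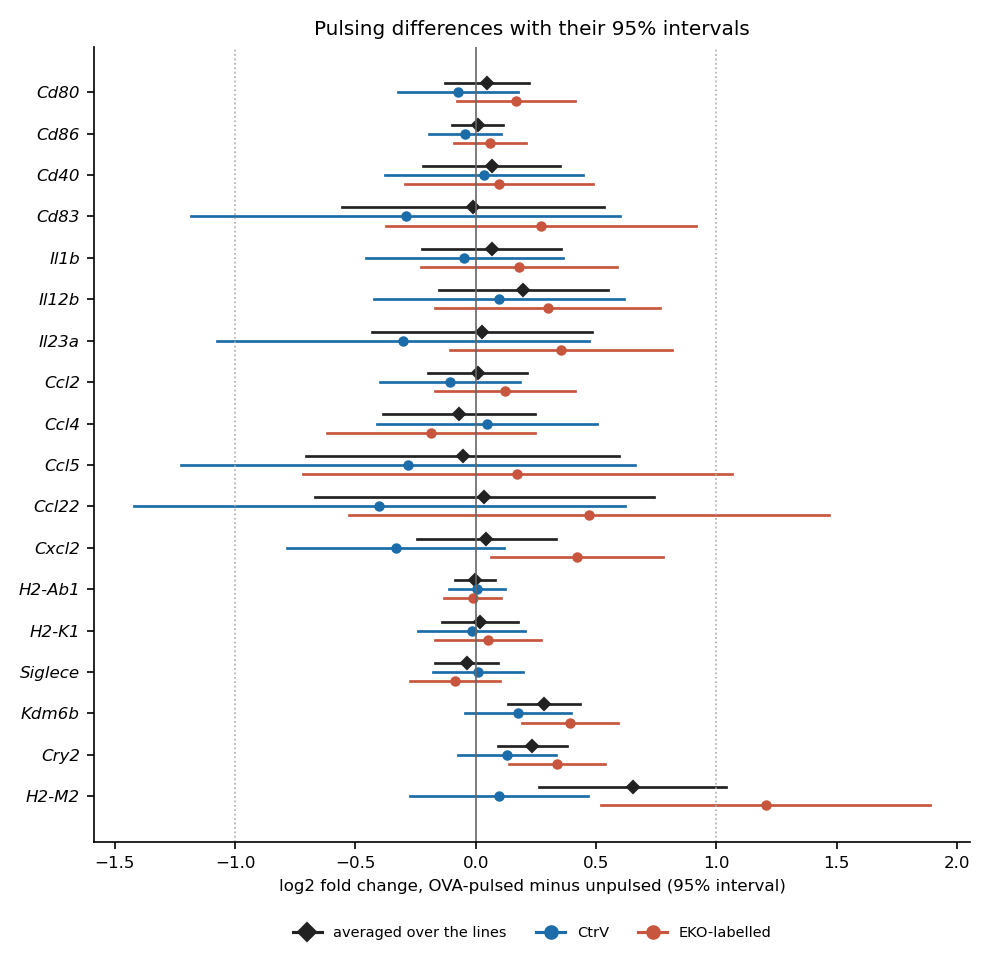
Log2 fold changes of OVA-pulsed minus unpulsed cells (horizontal axis) with 95% intervals for 18 genes, averaged over the lines (black) and in each line; dotted lines mark -1 and 1. The averaged intervals of the first 15 genes hold 0, and those of Kdm6b, Cry2 and H2-M2, which were chosen for a small p, do not.

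In the lists of mature DC and interferon genes the pairs went opposite ways. Over 19 tested genes of mature migratory DCs, a list first compiled after results of these data had been seen, the median was 0.0636. It was -0.149 in CtrV and 0.201 in EKO-labelled cells. By pair it was 0.565, -0.515 and -0.487 for numbers 1, 2 and 3 of CtrV, and 0.122, -0.008 and 0.679 for those of the EKO-labelled cells. Over 4 degrees of freedom, the replicate numbers within a line took 23.8% of the sum of squares of this list. Pulsing took 0.403% with 1 degree of freedom. With 1 library left out the median lay between -0.152 (without unpulsed CtrV replicate 1) and 0.194 (without unpulsed EKO-labelled replicate 1). Ccr7 (chr11:99144196-99155077), which directs DCs to lymph nodes, had 62.2, 102 and 153 CPM in unpulsed CtrV and 182, 51.5 and 50.3 CPM in pulsed CtrV cells, and 403, 137 and 118 against 533, 132 and 402 CPM in EKO-labelled cells. Its pulsed libraries thus held both the highest and the lowest CtrV values (averaged log2 fold change 0.092 (SE 0.36), 95% interval -0.71 to 0.89). Fscn1, the actin-bundling protein of mature DCs, followed the same order of libraries within CtrV cells, with 149.7, 190.3 and 241 CPM unpulsed and 342, 120.1 and 117 CPM pulsed.

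The type I interferon response list had a median of 0.029 over 42 tested genes, 0.106 in CtrV and -0.0638 in EKO-labelled cells. The pairs ran from -0.319 to 0.679. Pulsing took 0.1% of the sum of squares of the list with 1 degree of freedom, against 6.92% over 4 for the replicate numbers. With 1 library left out the median lay between -0.18 (without pulsed CtrV replicate 1) and 0.116 (without pulsed CtrV replicate 3). Isg15, a ubiquitin-like modifier, had 42.2, 49.1 and 66.9 CPM in unpulsed and 98.5, 41.4 and 44.6 CPM in pulsed CtrV cells, and 195, 425 and 385 against 304, 301 and 367 CPM in EKO-labelled cells. It was higher with OVA at number 1 of both lines and lower in the other 4 pairs (log2 fold change 0.10 (SE 0.26), 95% interval -0.47 to 0.66). Ifit1, an interferon-induced RNA-binding protein, had a log2 fold change of 0.034 (SE 0.24), 95% interval -0.49 to 0.56. Zbp1, a sensor of Z-form nucleic acids, was the highest of the list, at 0.22 (SE 0.33), 95% interval -0.51 to 0.96. Among 32 genes of LPS sensing, NF-kB and its feedback the median was 0.0489 and 28 were above 0, whereas 7366 of all 14079 tested genes were. By pair the median was 0.221, -0.0257 and -0.113 in CtrV and 0.216, -0.0999 and 0.0648 in EKO-labelled cells, and without pulsed CtrV replicate 1 it was -0.0032. Of the 32 genes, 0 had an unadjusted p under 0.05. Over 26 immediate early genes the median was 0.00359.

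Stress and metabolic programs lay close to the median of all genes. The median was 0.00114 over 22 genes of the unfolded protein response and 0.000591 over 24 of cholesterol synthesis. It was -0.00247 over 18 heat shock genes, 0.0131 over 29 of glycolysis and the hypoxia response, 0.0182 over 16 of metal handling and 0.00631 over 16 LXR targets and genes of fatty acid synthesis. The median of all genes was -0.0126 with upper-quartile scaling instead of 0.00333. List medians between -0.000797 and 0.0131 are too near 0 for a direction. Several took the other sign under that scaling or with library totals alone. The heat shock and MHC class II medians are also too near 0. With 1 library left out they lay between -0.0125 and 0.00536 and between -0.0228 and 0.0157, respectively. Of 37 tested genes of the ATF4 and amino acid response 19 were above and 18 below 0. In the NRF2 list, with a median of 0.00777 over 24 genes, Txnrd1, a thioredoxin reductase, had an unadjusted p under 0.05 with a small value (0.067 (SE 0.03), 95% interval 0.0001 to 0.13) and was higher in all 6 pairs. Among the 14 tested actin and SRF targets all 14 were above 0, with a median of 0.0499, which was between 0.0176 and 0.0943 with 1 library left out. Srf itself, the serum response factor, was higher in 5 of 6 pairs, with a log2 fold change of 0.092 (SE 0.033), 95% interval 0.019 to 0.17 (adjusted p = 1). In CtrV cells the median of that list was -0.0139 and in EKO-labelled cells 0.0939.

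Lists of cell growth and division had medians below 0 by small amounts, and in several of them a single library moved the median close to 0. The mitosis list had a median of -0.0869, the lowest of the 27 lists, and all 42 tested members were below 0. The median was -0.0149 in CtrV and -0.16 in EKO-labelled cells, and by pair it was above 0 in 3 of 6, between -0.348 and 0.117. Leaving out the first unpulsed CtrV replicate moved it to -0.000953. No member had an unadjusted p under 0.05. Ccnb2, a mitotic cyclin, was the lowest, with a log2 fold change of -0.16 (SE 0.11), 95% interval -0.40 to 0.081. Mki67, the proliferation antigen Ki-67, had 848, 744 and 464 CPM in unpulsed and 729.9, 798 and 688 CPM in pulsed CtrV cells, and 473, 474 and 506 against 358, 484 and 499 CPM in EKO-labelled cells. For Mki67 the third unpulsed CtrV and the first pulsed EKO-labelled library were the lowest of their lines. Its log2 fold change, -0.000615, was the highest of the 42 members. By mean log2 CPM over the list, the first pulsed library was the lowest of each line, at 6.586 in CtrV and 5.694 in EKO-labelled cells. In bulk RNA fewer dividing cells and less of these transcripts per cell cannot be told apart.

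DNA replication genes had a median of -0.0289 over 42, and Gins3, a subunit of the replicative helicase, had the lowest value (-0.13 (SE 0.047), 95% interval -0.23 to -0.023). Cytosolic ribosomal proteins had a median of -0.0384, with 71 of 78 below 0, and nuclear subunits of the respiratory chain had -0.0285, with 57 of 74 below 0. Pair 3 of CtrV was the lowest in both lists, at -0.161 and -0.147. In the ribosomal list pairs 2 and 3 of the EKO-labelled cells were also below 0, at -0.0606 and -0.0503, and 3 of 6 pairs were above 0. In the respiratory chain list 1 of 6 pairs was above 0, at 0.0217. Without unpulsed CtrV replicate 3 their medians were -0.0107 and 0.00524. That of DNA replication was -0.00337 without unpulsed EKO-labelled replicate 1. Rps21 and Rps12 were lower in all 6 pairs, with log2 fold changes of -0.092, 95% interval -0.18 to -0.0056, and -0.085, 95% interval -0.16 to -0.011. Ribosomal protein genes have many near-identical pseudogene copies, so their counts depend on which location was kept for a read. The 9 tested mitochondrially encoded transcripts had a median of -0.0776, which stayed between -0.0968 and -0.0445 with 1 library left out. By pair it was above 0 in 1 of 6, between -0.269 and 0.0475. Pulsing took 10.5% of the sum of squares of this list with 1 degree of freedom. The replicate numbers within a line took 34.4% over 4, and the remainder within pairs 26.8% over 4. For each degree of freedom, pulsing took 1.56 times as much as that remainder. Its member mt-Nd2, a subunit of complex I, had a log2 fold change of -0.089 (SE 0.04), 95% interval -0.18 to -0.0004. Mitochondrial transcripts made up 1.08% to 1.33% of counts in each library, and mt-Co2, mt-Co3, mt-Atp6 and mt-Atp8 had at most 20 counts and were not tested. The 9 tested members had a mean log2 CPM between 9.164 and 9.457. The part of read placement in the counts of this list was not tested. Among the 11 tested replication-dependent histone genes, whose mRNAs mostly lack poly(A) tails, the median was -0.0364, and it lay between -0.19 (without pulsed CtrV replicate 1) and 0.0885 (without unpulsed EKO-labelled replicate 2) when 1 library was left out. The linker histone gene Hist1h1e had an unadjusted p under 0.05 (-0.55 (SE 0.19), 95% interval -0.97 to -0.13) at levels of 0.209 to 1.3 CPM. Over the 27 lists, 731 distinct genes were tested, 0 were called, and 2 had an unadjusted p under 0.05 with a higher and 6 with a lower value. These 8 were 1.09% of the list genes, beside 2.23% of all tested genes.

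**Figure D5:**
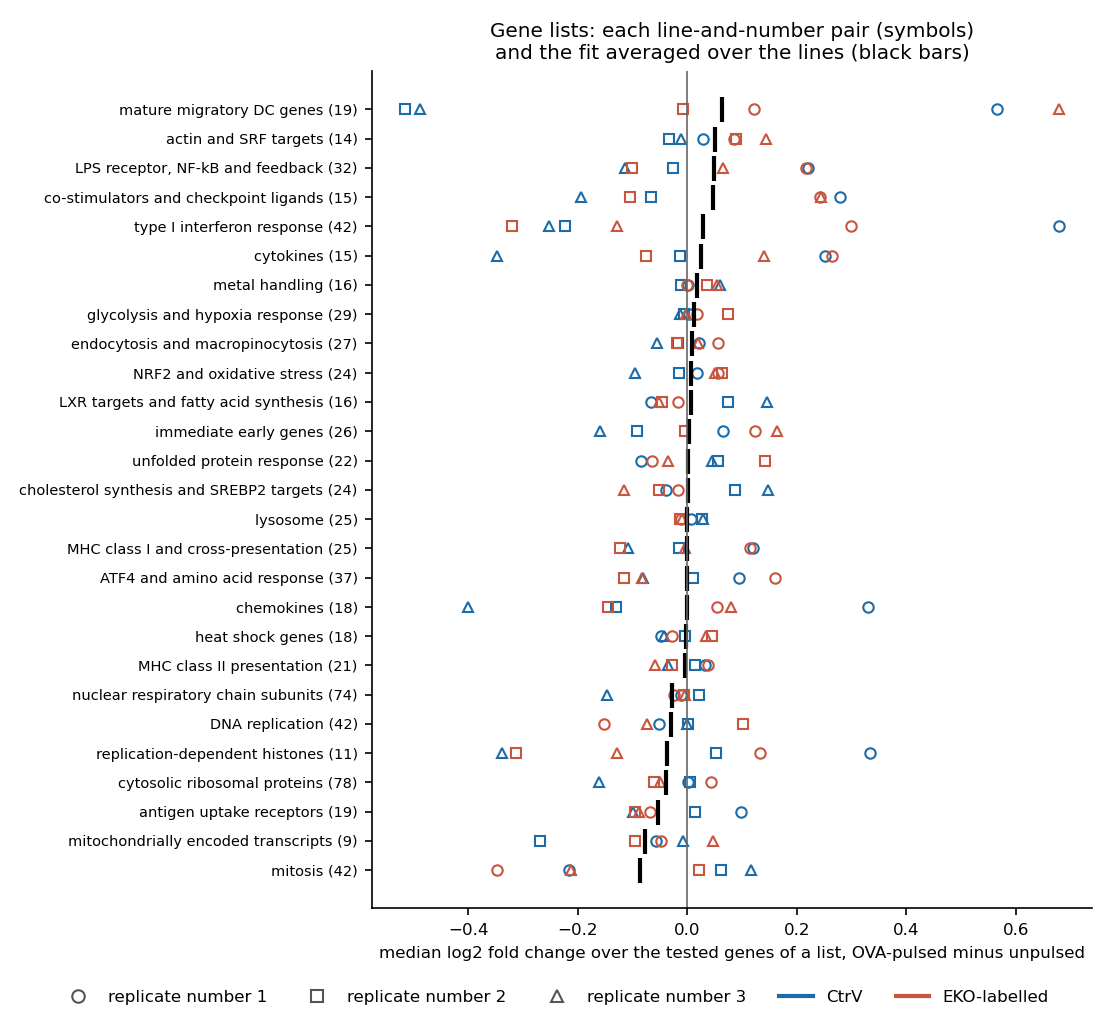
Median log2 fold change of OVA-pulsed minus unpulsed cells (horizontal axis) over the tested genes of each of 27 lists (number in brackets), in each pair of a line and replicate number (symbols) and in the fit averaged over the lines (black bars). The black bars lie between -0.0869 and 0.0636, and the symbols of mature migratory DC and interferon genes spread to both sides, from -0.515 to 0.679.

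The 10 genes with the smallest p for pulsing had an adjusted p of 1 and are described for completeness, without a test of their own, since they were chosen by that p. Of these 10, 7 were processed pseudogenes, all lower in pulsed cells. The first was Gm2614 (chr12:100744533-100744935), with 56.7, 59.1 and 64.6 CPM in unpulsed and 51.5, 53.0 and 54.0 CPM in pulsed CtrV cells, and 47.1, 51.2 and 51.2 against 43.8, 47.1 and 49.1 CPM in EKO-labelled cells, a log2 fold change of -0.14 (SE 0.032), 95% interval -0.21 to -0.07. The others were Hmgb1-ps6, Gm42933, Gm7707, Gm7862, CT030665.1 and Gm12222, with log2 fold changes between -0.52 and -0.26. Reads from such genes can fit their parent or other copies equally well, and these values are uncertain for that reason. The remaining 3 were coding genes with higher values.

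Kdm6b (chr11:69398508-69413675), a histone H3 lysine demethylase that is induced by LPS in macrophages, had 17.0, 15.2 and 11.8 CPM in unpulsed and 19.6, 15.0 and 15.1 CPM in pulsed CtrV cells. In EKO-labelled cells it had 40.9, 29.5 and 26.1 CPM without and 55.7, 34.1 and 37.1 CPM with OVA. The pulsed library was the higher in 5 of 6 pairs, and pulsed and unpulsed values overlapped in both lines (log2 fold change 0.28 (SE 0.067), 95% interval 0.14 to 0.43). Cry2 (chr2:92403646-92434043), a repressor of the circadian clock, was higher in all 6 pairs, with 4.79, 4.15 and 4.25 CPM against 5.21, 4.77 and 4.47 CPM in CtrV cells and 5.13, 4.65 and 3.82 against 6.24, 5.30 and 5.59 CPM in EKO-labelled cells. Pulsed and unpulsed values overlapped in CtrV cells and not in EKO-labelled cells, and the averaged log2 fold change was 0.23 (SE 0.064), 95% interval 0.092 to 0.38. H2-M2 (chr17:37480851-37483552), a non-classical class I gene, was low throughout. In EKO-labelled cells it had 0.440, 0.330 and 0.397 CPM without and 1.04, 0.675 and 0.952 CPM with OVA, which did not overlap, whereas CtrV cells had 2.92, 3.86 and 4.46 and 4.51, 3.83 and 3.64 CPM, which did. Its averaged log2 fold change was 0.65 (SE 0.18), 95% interval 0.26 to 1.04, with 0.10 in CtrV and 1.21 in EKO-labelled cells, and the dependence on the line did not pass the test either (adjusted p = 1). Of the exon bases of Kdm6b and Cry2, 4.1% and 4.7% lie opposite another gene, and the sources used here do not give the strand setting of the counting.

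Whether pulsing acted differently in the lines was tested as the pulsing difference in EKO-labelled cells minus that in CtrV cells. The count was 0 of 14079 genes (0%) at an adjusted p under 0.05 in edgeR, DESeq2 and limma voom. In edgeR 269 genes (1.91%) had an unadjusted p under 0.05. That number was 945 (6.72%) without unpulsed CtrV replicate 1, with a smallest adjusted p of 0.411. It was 948 (6.75%) without both CtrV libraries numbered 1, with a smallest adjusted p of 0.0833. Both shares are above the 5% of uniform p-values. The 5 genes with the smallest p, all with an adjusted p of 1, were Dnal1, Ap3m1-ps, Bola1, Cyp4f37 and D130040H23Rik. Dnal1, an axonemal dynein light chain, had 81.3, 83.5 and 64.8 CPM in unpulsed and 82.2, 82.9 and 70.7 CPM in pulsed CtrV cells, and 46.1, 50.6 and 45.1 against 38.3, 42.8 and 36.0 CPM in EKO-labelled cells. Its pulsed and unpulsed values overlapped in CtrV cells and did not in EKO-labelled cells, and 5.5% of its exon length lies opposite another gene (difference of log2 fold changes -0.32 (SE 0.083), 95% interval -0.51 to -0.14). Bola1, a mitochondrial protein of iron-sulfur cluster assembly, had the opposite sign of difference (0.42 (SE 0.12), 95% interval 0.16 to 0.68). Cxcl2, a neutrophil chemoattractant, had a difference of 0.75 (SE 0.26), 95% interval 0.18 to 1.33 (adjusted p = 1). It had 7.04, 9.76 and 11.7 CPM in unpulsed and 7.50, 8.33 and 6.89 CPM in pulsed CtrV cells, and 61.5, 57.5 and 40.8 against 63.9, 86.9 and 63.8 CPM in EKO-labelled cells. All 3 pulsed EKO-labelled libraries were above the unpulsed ones of that line, by as little as 63.8 against 61.5 CPM, while CtrV values overlapped.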

How the data were processed

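RNA of 12 samples was sequenced from a stranded mRNA library kit. The authors deposited raw read counts per gene. Per the methods and labels they aligned reads to mm10 with STAR, kept 1 location for reads with equally good hits, and counted read ends on the exon union of Ensembl genes with featureCounts. Strand use is not stated. Groups and replicate numbers were taken from the labels, and no count column was left out.

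Genes over a log2 CPM of 0 in 2 or more libraries were tested with edgeR 4.0.16 in R 4.3.3, using TMM factors, 1 quasi-likelihood fit over all libraries with the group and the replicate number as terms, and Benjamini-Hochberg adjustment at 0.05. The pulsing contrast was the mean of the differences in the 2 lines. Standard errors and 95% intervals came from the estimate and its F statistic. The replicate term follows the study's methods. It was shared by both lines, so the main fit had no separate term for each pair of a line and number. The alternative with a replicate block within each line had one. Symbols and positions come from the GENCODE vM21 annotation of GRCm38, the same build but perhaps another gene set than that of the authors, and 14056 tested genes had a symbol. Principal components used log2 CPM of the 25% most variable tested genes, centred, with a prior count of 2.

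Named were the 10 genes with the smallest p for pulsing, the 5 with the smallest p for dependence on the line, up to 4 members of each list with the smallest p, and genes that the study measured or names. A further part, the called genes with the largest changes, named none. List extremes, Ccr7, Fscn1, Isg15, Ifit1, Ly75, Mki67 and Il12a were named after their values were seen. The comparison, lists and tests were chosen with earlier results of these data known, so none is independent support. Alternatives were DESeq2 1.42.0, limma 3.58.1 voom, RLE and upper-quartile normalization, library totals alone, other filters and thresholds, no replicate block, other blocks, each line alone, and leaving out each library or pair. A bias-adjusted quasi-likelihood fit was added after the data were seen. The scripts were first tested on simulated data.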

Additional observations from a re-analysis of the deposited data

How the results depend on the processing

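The count of 0 genes for pulsing averaged over the lines was obtained under all 31 alternatives, and the counts for the CtrV line, the EKO-labelled line and the dependence on the line were also 0 under every alternative run, 123 in all. Leaving out 1 library or 1 pair at a time gave 0 to 0 genes. The number of genes at an unadjusted p under 0.05 for the averaged contrast, 314, did vary. It was 83 with DESeq2, 536 without a filter, 142 without the replicate block and 510 with a replicate block within each line, where the smallest adjusted p was 0.94. With 1 library left out it lay between 185 (1.32%, without pulsed EKO-labelled replicate 3) and 762 (5.42%, without unpulsed CtrV replicate 2). With 1 pair left out it lay between 185 and 470. With 1 library left out it lay between 161 and 663 for CtrV, 244 and 1076 for EKO-labelled cells and 180 and 945 for the dependence, and with 1 pair left out between 143 and 626, 218 and 799, and 192 and 948. The smallest adjusted p for the dependence was 0.0833 without both CtrV libraries numbered 1. Without the block, the number of genes at an unadjusted p under 0.05 was 123 for CtrV, 169 for EKO-labelled cells and 158 for the dependence. With the block within each line these numbers were 388, 732 (5.2%) and 500. DESeq2 gave 44, 156 and 103 for these, and no filter gave 404, 713 and 547. The 6 libraries of a line alone gave 239 (1.74%) for CtrV and 743 (5.42%) for EKO-labelled cells. The causes of these shifts were not tested. The block of replicate numbers changed no call at an adjusted p under 0.05, with or without it 0 genes were called. Deviations from the group means of same-numbered pulsed and unpulsed samples correlated at 0.0775, 0.179 and 0.373 in CtrV cells and at 0.706, 0.351 and 0.411 in EKO-labelled cells. Between the lines, same-numbered samples correlated at 0.0602, -0.0118 and 0.263 when unpulsed and at 0.448, 0.292 and 0.289 when pulsed. Best correlated with their own number were 4 of 6 CtrV and 5 of 6 EKO-labelled samples, a count that both samples of a pair enter. No label says what a number marks, and a factor shared within pairs was not tested. At most 2 of 136 named genes changed sign in fits that kept all samples, and at most 20 did when samples were left out, both samples numbered 1 of CtrV in that case. Of 783 list medians compared, 1 moved by more than the SD of its pair values (the lysosome list, -0.0212 without unpulsed CtrV replicate 2), but that SD is wide, up to 0.505, and medians near 0 changed sign when single libraries were left out. Fold changes of genes with few counts are limited by depth, since 3 counts are up to 0.11 CPM.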

Other observations

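Genes at an unadjusted p under 0.05 were not spread evenly over gene classes. Among 2462 tested pseudogenes 22 were higher and 74 lower in pulsed cells (3.9%), with a median log2 fold change of -0.0266. Among 10902 protein-coding genes 119 were higher and 81 lower (1.83%), with a median of 0.00865. Pseudogenes made up 8.73%, 8.74% and 9.58% of counts in unpulsed and 8.63%, 8.69% and 8.9% in pulsed CtrV libraries. In EKO-labelled libraries the shares were 8.06%, 8.49% and 8.44% against 7.91%, 8.13% and 8.33%, so the share was lower in the pulsed library of every pair. Counts of pseudogenes depend on which location was kept for reads that fitted several. The parts of read placement and of exon length in these values were not tested. No gene of either class was called at an adjusted p under 0.05.

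The averaged log2 fold change varied with the summed exon length of a gene. In 5 classes of equal size, from the shortest to the longest genes, its median was -0.029, -0.00921, 0.000177, 0.0118 and 0.0323. The Spearman correlation across 14056 genes, which share the same 12 libraries and are not independent replicates, was 0.303, with 0.306 in CtrV and 0.144 in EKO-labelled cells. In the class of the longest genes the median was above 0 in 5 of 6 pairs, between -0.00616 and 0.128, and in that of the shortest it was above 0 in 2 of 6, between -0.113 and 0.0151. The lists did not all follow this order. Mitochondrially encoded transcripts, with a median exon length of 1038 bases, were at -0.0776 and ribosomal proteins, at 1775.5 bases, at -0.0384. The mitosis list, at 4798 bases, was lower still, at -0.0869, and the chemokine list, at 1466.5 bases, was at -0.000797. The part of exon length in these values was not tested.

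Cxcl3, a neutrophil chemoattractant, was too low to test. In EKO-labelled cells it had 22, 9 and 4 counts in unpulsed and 39, 22 and 22 counts in pulsed replicates 1, 2 and 3, and in CtrV cells 0, 3 and 4 against 5, 4 and 2 counts. These are raw counts, not scaled to the totals, which were larger in the pulsed library of 5 of 6 pairs. In EKO-labelled cells the totals were 27792723, 31047857 and 33313469 in unpulsed and 39698572, 31533510 and 33295347 in pulsed replicates 1, 2 and 3. The gene was named after its values were seen, and its counts carry no test.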
